A study of Mus musculus with 6 samples.

Results

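miR-203 and miR-205 are the microRNAs (miRNAs) best known from keratinocytes, the cells of the epidermis. Their entries were taken by name from the deposited read counts. Once the species prefix, the arm and any copy number had been dropped from each name, 4 of 1480 entries were left, mmu-miR-203-3p, mmu-miR-203-5p, mmu-miR-205-5p and mmu-miR-205-3p, written without the prefix below. Small RNA had been sequenced from mouse skin in 3 UVA irradiated libraries and 3 non-irradiated libraries. UVA, the long-wave part of ultraviolet light, was given on alternate days over 4 months to a total dose of 89.88 J/cm2. The non-irradiated mice carry no other treatment in the labels, and no strain, age or sex of the mice was used here. Nothing in the labels ties a replicate to its own animal, so each p-value rests only on the spread between libraries, which may be technical.

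A miRNA gene is transcribed into a hairpin, from which a short duplex of both arms is cut. One strand, the guide, is kept in an Argonaute protein and represses mRNAs that pair with its seed, while the other strand is mostly degraded. In mouse epidermis miR-203 is induced as keratinocytes leave the basal layer and represses the mRNA of p63, the transcription factor that keeps basal cells proliferating. miR-205 is abundant in the basal layer and in hair follicle progenitors, where it represses inhibitors of PI3K and Akt signalling. In bulk skin, fewer cells of a type and less RNA per cell cannot be told apart, and whether either miRNA was in basal or differentiated cells cannot be read from these libraries.

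The mature sequences are shown because every comparison below turns on which arm was counted. They are RNA, 5′ to 3′, from RefSeq with the GRCm38.p6 build, and the capitals mark the seed, bases 2 to 8.
miR-203-3p: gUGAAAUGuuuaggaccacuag
miR-203-5p: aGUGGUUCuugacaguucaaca
miR-205-5p: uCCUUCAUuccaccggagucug
miR-205-3p: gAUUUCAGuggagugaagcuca
All 4 were found in RefSeq, equal the deposited sequences and are 22 bases long. They differ in base content, from 40.91% GC in both arms of miR-203 to 54.55% in miR-205-5p. How evenly the arms were captured was not tested, so levels of different arms are numbers of reads. The guides are miR-203-3p and miR-205-5p, from opposite arms of their hairpins, and the 4 seeds differ. No other entry of the table shared a seed with any of the 4 arms (0 entries for each) or lay within 2 edits of one (0 entries for each).

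The hairpins are printed with both mature arms in capitals, to show where each guide lies.
Mir203: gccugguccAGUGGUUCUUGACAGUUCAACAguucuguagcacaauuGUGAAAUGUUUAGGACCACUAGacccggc
Mir205: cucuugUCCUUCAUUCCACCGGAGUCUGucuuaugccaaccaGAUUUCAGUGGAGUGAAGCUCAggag
In GRCm38 Mir203 lies at chr12:112130880-112130955 on the plus strand, between the protein-coding genes Aspg, 3.3 kb away, and Kif26a, 15.3 kb away, and GENCODE places no other gene over it. Mir205 lies at chr1:193507463-193507530 on the minus strand, within a lncRNA exon of the gene named Mir205hg in RefSeq and 4631405K08Rik in GENCODE, and its nearest protein-coding gene is Camk1g at 137.2 kb.

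The libraries held 8.19 M to 12.82 M reads assigned to miRNAs with UVA and 7.65 M to 17.19 M without it. The least of the 24 member counts was 292 reads, of miR-203-5p, and counting error was small beside the spread between libraries for the guides. The authors' total reads did not overlap between the groups, at 20.5 M to 21.9 M in UVA and 26.9 M to 30.5 M in non-irradiated libraries, so depth and treatment cannot be told apart. Non-irradiated replicates 1 and 2 listed 506 and 574 miRNAs with a read, replicate 3 listed 715 and the UVA libraries 1088 to 1099. Results are therefore also given without those 2 libraries. The skin miRNAs around the members shifted as well. The 11 entries of the skeletal muscle list took 28.5% to 39.7% of miRNA reads in non-irradiated and 5.08% to 7.16% in UVA libraries, and in the non-irradiated libraries most of these reads were of miR-1a-3p. The muscle entry miR-133a-3p was level, at means of 430 and 423 CPM. The 5 entries of the fibroblast list took 0.214% to 0.380% of reads in non-irradiated and 2.28% to 3.49% in UVA libraries.

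miR-205-5p was 7.82-fold higher in UVA skin, and the other 3 arms did not pass the test. With the scaling described next, miR-203-3p, the guide with far more reads, had similar means in both groups. With that scaling miR-205-3p, cut from the same hairpin as miR-205-5p, was level between the groups. Values are counts-per-million (CPM) of libraries scaled by edgeR's TMM factors, and an adjusted p of 0.05 or lower in edgeR's quasi-likelihood test over 499 tested miRNAs is called. All 4 members passed the filter on low counts. By this rule 21.8% of all tested miRNAs were called, 13.6% of them higher (68) and 8.22% lower (41), so 1 call among 4 members is near the background.

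**Figure D1:**
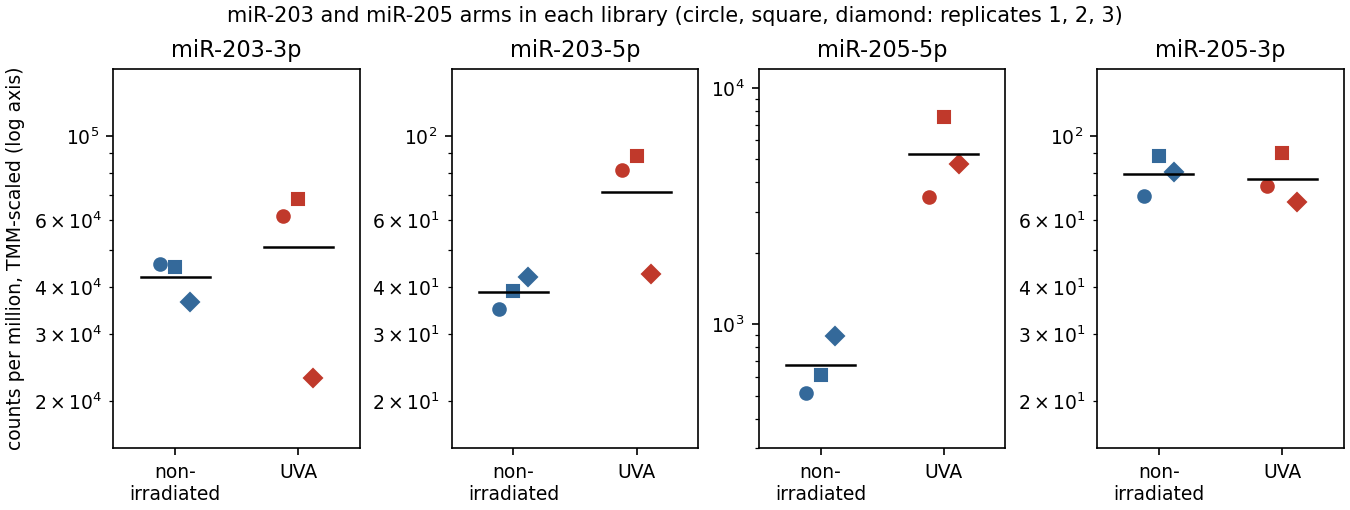
Counts-per-million (TMM-scaled, log axes that differ between panels) of the 4 arms in each library, with replicates 1, 2 and 3 as circle, square and diamond and the group mean as a line. The 3 UVA libraries lie at 3476 to 7508 CPM for miR-205-5p, above all non-irradiated libraries at 514 to 891 CPM, while the groups overlap for miR-203-3p and miR-205-3p.

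miR-205-5p, the guide of the basal miRNA, stood at 3476, 7508 and 4785 CPM in UVA replicates 1, 2 and 3 and at 514, 610 and 891 CPM in the non-irradiated replicates. Every UVA library lay above every non-irradiated one. Of all tested miRNAs 48.3% had groups that did not overlap, with UVA either wholly above or wholly below. The means were 5256 ± 2057 and 672 ± 196 CPM (SD, n = 3 per group), and the log2 fold change was 2.97 (SE 0.47, 95% interval 1.92 to 4.02, edgeR adjusted p = 0.0045). It rose from 0.0426% to 0.0800% of miRNA reads in non-irradiated libraries to 0.425% to 0.911% in UVA libraries. Ordered by reads it stood 61st to 72nd in the non-irradiated libraries and 21st to 28th in the UVA libraries. All tested miRNAs had a median log2 fold change of 0.27, which leaves miR-205-5p 2.69 above it. With library size alone, without TMM scaling, that median was 0.81, with 122 miRNAs called higher and 27 lower, and miR-205-5p lay 2.69 above it again.

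The rise of miR-205-5p was called without each single library in turn, with log2 fold changes of 2.57 to 3.13 and edgeR adjusted p from 0.00286 to 0.0291. Without non-irradiated replicates 1 and 2 together the log2 fold change was 2.18 (SE 0.83) and the call was lost (edgeR adjusted p = 0.229). In that fit the remaining non-irradiated library is assumed to vary like the UVA group, and edgeR called 0 miRNAs higher and 1 lower, with 47 higher and 59 lower at an unadjusted p of 0.05. On those 4 libraries the DESeq2 Wald test called 32 higher and 24 lower and limma-voom 0 and 1. With the reads of the skeletal muscle list left out before scaling the log2 fold change was 3.08 (edgeR adjusted p = 0.0047). In the authors' deposited table the log2 fold change of miR-205-5p is 3.01 with a q of 0.000279.

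miR-203-3p, the guide of the differentiation miRNA, stood at 61628, 68244 and 22936 CPM in the UVA replicates and at 45881, 45064 and 36427 CPM in the non-irradiated replicates. UVA replicates 1 and 2 were the highest of the 6 libraries and UVA replicate 3 was the lowest, so the groups overlapped from both sides. The means were 50936 ± 24473 and 42457 ± 5238 CPM (SD, n = 3 per group), and the log2 fold change was 0.26 (SE 0.43, edgeR adjusted p = 0.67). The 95% interval of that difference runs from -0.69 to 1.21, or from 0.621-fold to 2.32-fold, so any change within that range is compatible with these libraries. Without UVA replicate 3 the log2 fold change was 0.63 (SE 0.31, edgeR adjusted p = 0.169). Its size depended on the scaling, at 0.82 with unscaled library sizes (edgeR adjusted p = 0.175) and 1.07 with the authors' total reads (edgeR adjusted p = 0.144). miR-203-3p held 3.27% to 3.80% of miRNA reads in the non-irradiated libraries, where it stood 6th, 6th and 7th. In UVA replicates 1 and 2 it held 7.54% and 8.28% and stood 3rd and 2nd, and in UVA replicate 3 it held 2.73% and stood 13th. In the authors' deposited table it has a log2 fold change of 0.34 and a q of 0.866.

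The less abundant arms, which are usually the degraded strands, gave a different picture. miR-203-5p stood at 81.3, 88.6 and 43.3 CPM in the UVA replicates and at 35.05, 38.95 and 42.5 CPM in the non-irradiated replicates. The groups did not overlap, but UVA replicate 3 exceeded the highest non-irradiated library by less than 1 CPM. Those libraries held 423 and 292 reads of it, so counting error alone could close that gap. The log2 fold change was 0.87 (SE 0.50, 95% interval -0.24 to 1.98) and was not called (edgeR adjusted p = 0.207). Scaled by the authors' total reads it was 1.70 and was called (edgeR adjusted p = 0.0477).

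miR-205-3p stood at 73.7, 90.0 and 66.8 CPM in the UVA replicates and at 69.5, 88.4 and 80.4 CPM in the non-irradiated replicates. The groups overlapped throughout, with means of 76.9 ± 11.9 and 79.4 ± 9.50 CPM (SD, n = 3 per group). The difference of -0.05 (SE 0.45, edgeR adjusted p = 0.951) on the log2 scale has a 95% interval from -1.06 to 0.96. Its sign depended on the scaling: the value was 0.50 with unscaled library sizes, 0.72 with the authors' total reads and 0.13 without the skeletal muscle list. Taken against the median of all tested miRNAs, which moves with the scaling, it was -0.32 in the reported fit, -0.30 with unscaled library sizes and -0.41 with the authors' total reads.

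**Figure D2:**
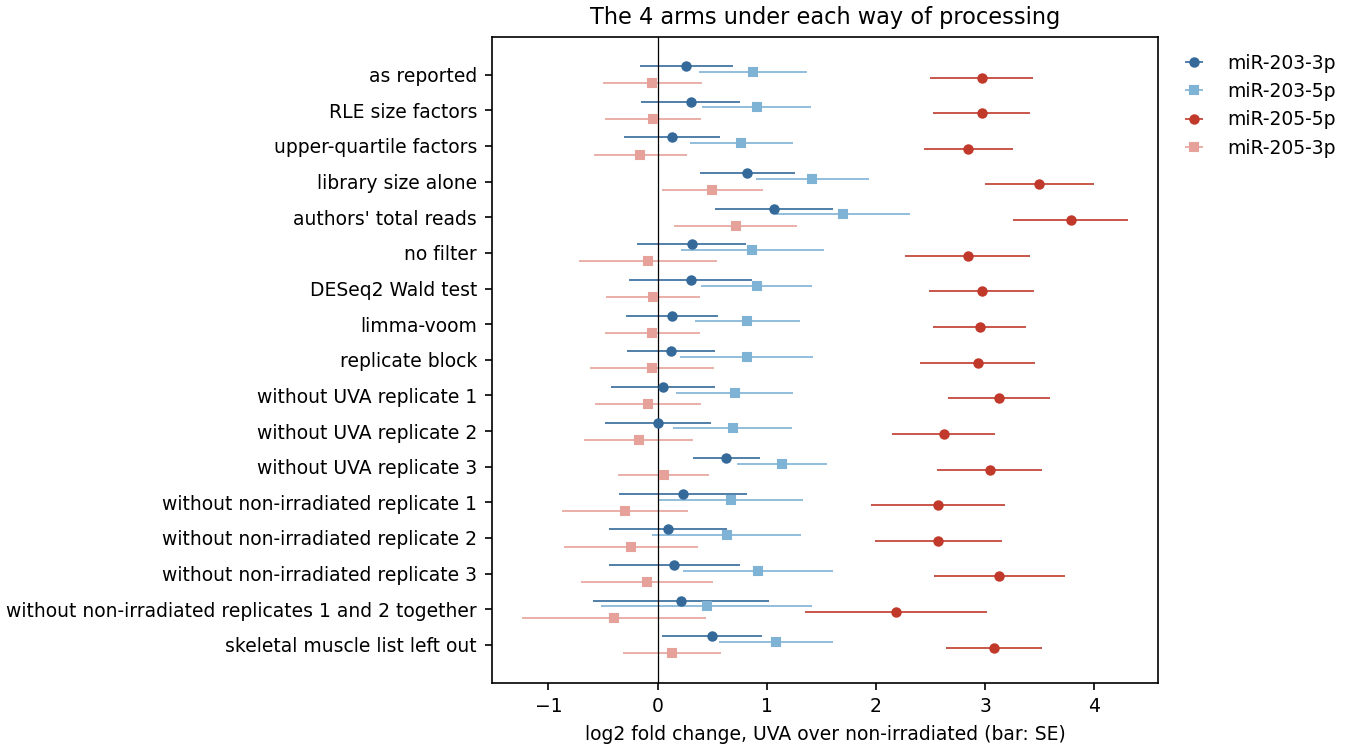
Log2 fold change (UVA over non-irradiated, bars are SE) of the 4 arms in the reported fit and under 16 other ways of scaling, filtering, testing or leaving out libraries. miR-205-5p lies between 2.18 and 3.78 throughout, to the right of the other 3 arms in each row, while miR-205-3p lies on both sides of 0.

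The next comparison was of the arms within a hairpin, which does not depend on library scaling because both arms are counted in the same library. miR-205-5p gained reads relative to miR-205-3p. Per read of miR-205-3p, the UVA replicates 1, 2 and 3 held 47.1, 83.4 and 71.6 reads of miR-205-5p and the non-irradiated replicates held 7.40, 6.90 and 11.1. Each UVA library lay above each non-irradiated one. The log2 of 5p over 3p reads (each plus 0.5) averaged 6.03 ± 0.43 and 3.05 ± 0.37 (SD, n = 3 per group), a difference of 2.99 or 7.93-fold.

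That difference was called by limma over 77 hairpins with 10 or more reads of both arms in every library (SE 0.74, limma adjusted p = 0.000471). limma draws the spread of each hairpin toward a shared value, which was wider here than that of miR-205 itself, whose own libraries give an SE of 0.33. The exact permutation test of this hairpin alone gave p = 0.1, the smallest that 3 against 3 allows. Changes of arm use were common in these libraries, since 35.1% of the hairpins were called in either direction. Those called with a higher 5p share in UVA made up 14.3% of the hairpins. In 44.2% of the hairpins the groups did not overlap. miR-205 was 12th of 77 by size and 12th by p. Without each single library the difference was 2.81 to 3.22 (limma adjusted p from 0.000336 to 0.0179), and without non-irradiated replicates 1 and 2 together it was 2.56 and not called (limma adjusted p = 0.148).

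In miR-203 the guide is the 3p arm, and its excess over the 5p arm was lower in UVA skin in each library, though not past the test. Per read of miR-203-5p, the UVA replicates held 758, 770 and 529 reads of miR-203-3p and the non-irradiated replicates held 1309, 1157 and 857. The groups did not overlap. The log2 of 5p over 3p reads differed by 0.69 (SE 0.74, limma adjusted p = 0.474), and miR-203 was 57th of 77 by p. The SE from the libraries of miR-203 alone was 0.25 and the exact permutation test gave p = 0.1. Relative to the other arm the guide was thus higher with UVA in miR-205 and lower in miR-203. That difference between the hairpins, a comparison chosen after values were seen, was 3.68 on the log2 scale (SE 0.51, exact permutation test, 2-sided, p = 0.1).

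**Figure D3:**
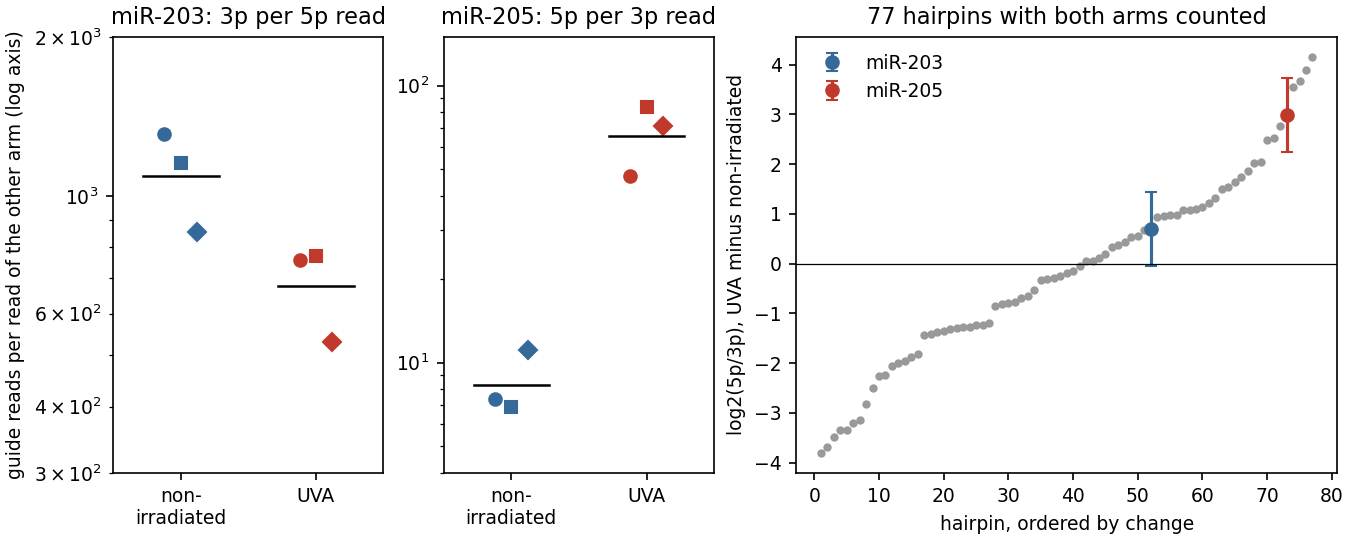
Reads of the guide per read of the other arm in each library for miR-203 and miR-205 (log axes, lines are geometric means, symbols as replicates 1, 2 and 3), and the change in log2(5p/3p) of 77 hairpins in order of size with miR-203 and miR-205 marked (bars are limma SE). miR-205 rises from 6.90 to 11.1 reads in non-irradiated libraries to 47.1 to 83.4 in UVA libraries, and lies 12th by size among hairpins that moved both ways.

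The direct comparison of the differentiation miRNA with the basal miRNA was the ratio of the guides within each library. miR-203-3p outnumbered miR-205-5p in all 6 libraries, but by far less in UVA skin. The UVA replicates held 17.7, 9.09 and 4.79 reads of miR-203-3p per read of miR-205-5p, and the non-irradiated replicates held 89.2, 73.9 and 40.9. The groups did not overlap, and replicate 3 was the lowest of both. The log2 ratio averaged 3.20 ± 0.94 in UVA and 6.01 ± 0.59 in non-irradiated skin (SD, n = 3 per group). It differed by -2.82 (SE 0.64), a ratio 7.04-fold lower in UVA skin, with p = 0.1 in the exact permutation test, 2-sided, the smallest this design allows. With both arms of each hairpin summed the difference was -2.67, and without each single library it was -3.29 to -2.35. It was -2.16 without non-irradiated replicates 1 and 2 together. A single non-irradiated library is then left, so the permutation test cannot reach a small p and was not read.

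The other arms went the opposite way. The UVA replicates held 1.10, 0.985 and 0.649 reads of miR-203-5p per read of miR-205-3p and the non-irradiated replicates held 0.504, 0.440 and 0.529. miR-205-3p thus had more reads in all non-irradiated libraries, and in UVA replicates 1 and 2 the reads of these arms were close to equal. The log2 difference was 0.86 (SE 0.25, exact permutation test, 2-sided, p = 0.1). Over the 8 ratios computed, each exact permutation p of 0.1 became 0.133 after Benjamini-Hochberg adjustment. In order of reads, miR-203-3p came first and miR-205-5p second in every library, and miR-203-5p and miR-205-3p followed in an order that changed between libraries.

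Against the summed guides of the miR-200 family, a part of the epithelial list below, miR-205-5p was again higher in every UVA library and miR-203-3p was not. The guides of miR-200a, miR-200b, miR-200c, miR-141 and miR-429, which keep epithelial cells from turning mesenchymal by repressing Zeb1 and Zeb2, were summed as the miR-200 group. This group took 0.758% to 1.26% of miRNA reads in UVA libraries and 0.451% to 0.625% in non-irradiated libraries. miR-205-5p held 0.383, 0.721 and 0.751 reads per read of this group in the UVA replicates and 0.0681, 0.103 and 0.133 in the non-irradiated replicates, which do not overlap. The difference was 2.60 on the log2 scale (SE 0.42), or 6.07-fold higher. miR-203-3p held 6.78, 6.56 and 3.601 reads per read of the group in UVA and 6.07, 7.61 and 5.42 in non-irradiated replicates, and UVA replicate 3 was the lowest of the 6. Its difference was -0.21 (SE 0.33), and the exact permutation tests, 2-sided, gave p = 0.1 for miR-205-5p and p = 0.7 for miR-203-3p. For the other arms the differences were -0.39 (SE 0.23, exact permutation p = 0.2) for miR-205-3p and 0.48 (SE 0.20, exact permutation p = 0.1) for miR-203-5p. The use of the miR-200 group as a reference was chosen after seeing the data.

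**Figure D4:**
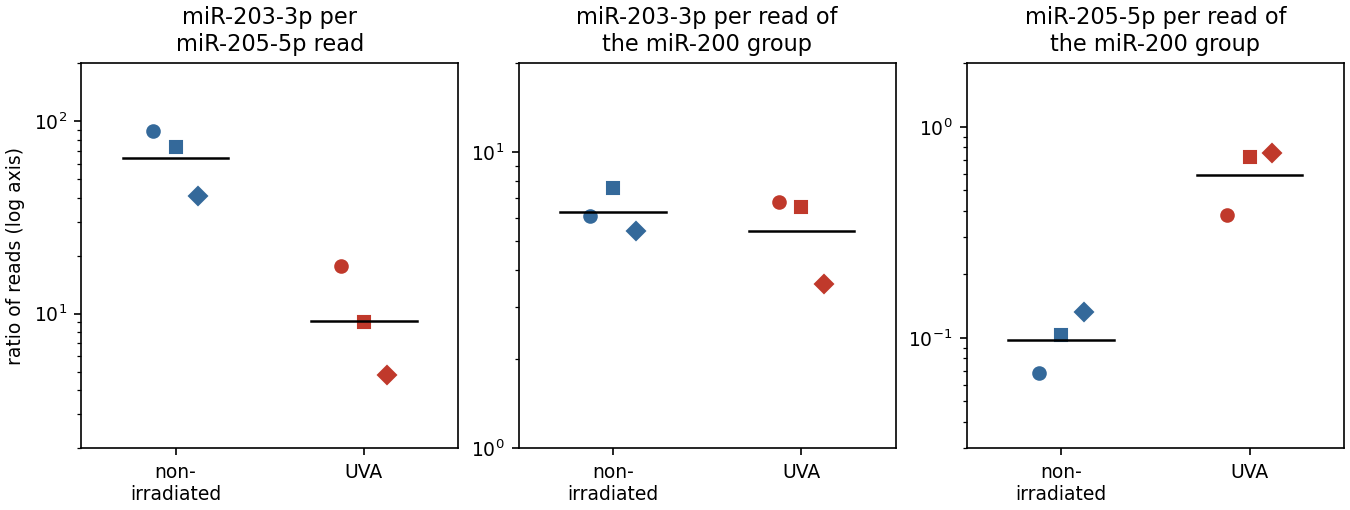
Ratios of reads within each library (log axes, lines are geometric means, symbols as replicates 1, 2 and 3) of miR-203-3p to miR-205-5p and of each guide to the summed guides of the miR-200 group. The ratio of the guides lies at 40.9 to 89.2 in non-irradiated and at 4.79 to 17.7 in UVA libraries, and miR-205-5p but not miR-203-3p separates the groups against the miR-200 group.

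Of the 17 tested entries of the epithelial list, which leaves out miR-203 and miR-205, 5 rose, 2 fell and 10 were not called, against 13.6% higher and 8.22% lower over all tested miRNAs, and 12 had positive log2 fold changes. Their median log2 fold change was 1.48 against 0.27 for all tested miRNAs. It stays 1.48 with miR-182-3p, which was at 0 reads in every non-irradiated library, at its lower bound. Like miR-182-3p, the entries miR-31-3p, miR-183-3p and miR-200c-5p passed the filter on low counts only through their UVA libraries. Passing in this way favours a positive value, so the median and the 12 positive values are a description only. The median without these entries was not computed. By mean level the most abundant member was miR-182-5p, which fell. The 3p arms of miR-200a, miR-200b and miR-200c did not pass the test. For miR-200c-3p the log2 fold change was 1.04 (SE 0.41, edgeR adjusted p = 0.0852), for miR-200a-3p -0.18 (SE 0.51) and for miR-200b-3p 0.0027 (SE 0.47). miR-200a-3p and miR-200b-3p shared with miR-203-3p the low value in UVA replicate 3. Both arms of miR-31, which is known from wounded epidermis, rose, as did miR-96-5p, miR-141-5p and miR-182-3p. Of these, miR-31-3p stood at only 1.08, 0 and 1.02 CPM in the non-irradiated replicates, so its direction was favoured by the filter.

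miR-184-3p, which in human keratinocytes is known to interfere with miR-205, fell. It stood at 12.1, 24.7 and 42.2 CPM in the UVA replicates and at 95.8, 150 and 113.6 CPM in the non-irradiated replicates, so the groups did not overlap. Its log2 fold change was -2.19 (SE 0.58, edgeR adjusted p = 0.0259) and lost its call without UVA replicate 2 (edgeR adjusted p = 0.107). miR-182-5p fell too (log2 fold change -1.77, SE 0.38, edgeR adjusted p = 0.0122), also not called without UVA replicate 2 (edgeR adjusted p = 0.0567), while its other arm reached 3.38 to 7.02 CPM in UVA from 0 reads, at least 15.96-fold above a floor of 3 counts per library. That arm, miR-182-3p, passed the filter only through its UVA libraries and also lost its call without UVA replicate 2 (edgeR adjusted p = 0.054). The call of miR-96-5p was lost without non-irradiated replicates 1 and 2 in turn (edgeR adjusted p = 0.0801 and 0.0687), its UVA mean of 785 CPM was 306 CPM without UVA replicate 1, and its log2 fold change of 3.55 was 2.12 without it and reached 4.16 without non-irradiated replicate 3. miR-141-5p lost its call without each library but UVA replicate 3, and its log2 fold change of 2.50 was 1.10 without UVA replicate 1.

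**Figure D5:**
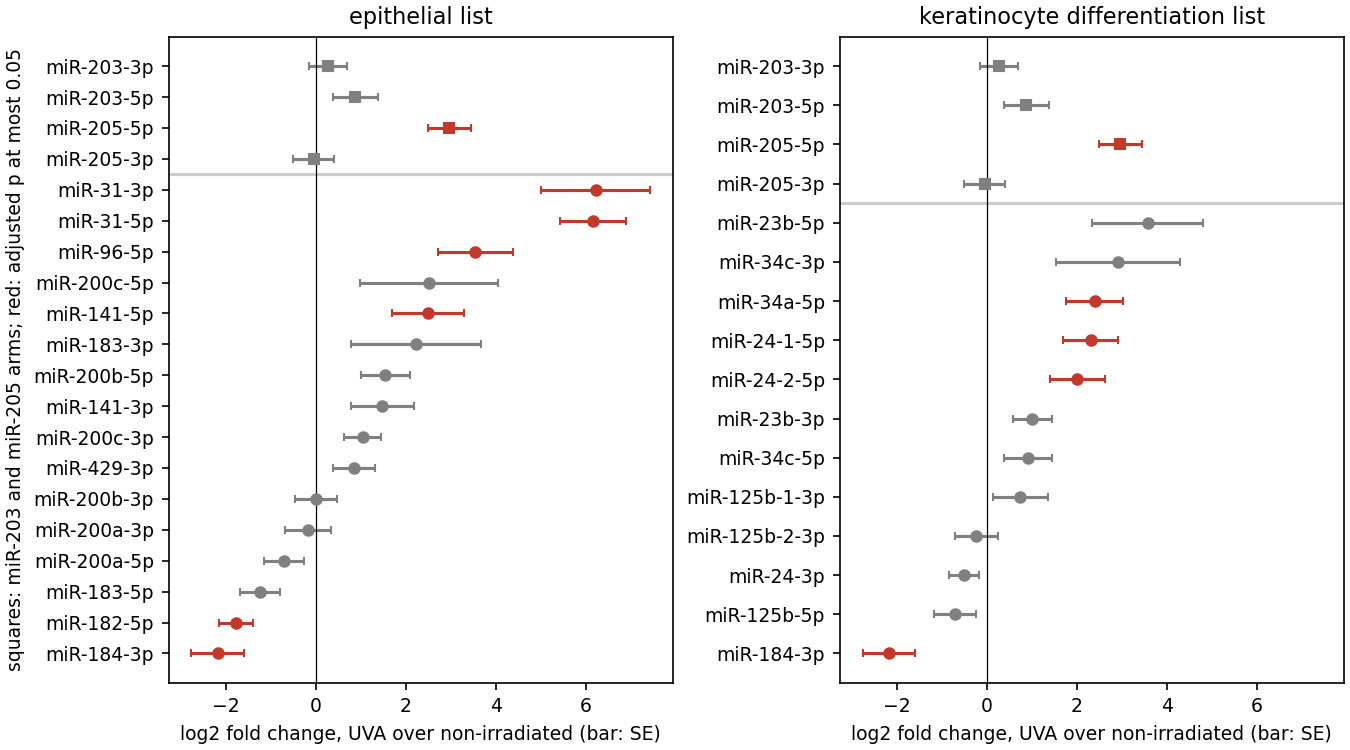
Log2 fold change (UVA over non-irradiated, bars are SE) of the 4 arms (squares, top) beside the tested members of the epithelial and the keratinocyte differentiation list (circles), with red for an edgeR adjusted p of 0.05 or lower. miR-205-5p at 2.97 lies below both arms of miR-31, miR-96-5p and miR-23b-5p, which was not called. Of these, miR-31-3p and miR-23b-5p passed the filter only through their UVA libraries. miR-203-3p lies near 0 with the 3p arms of miR-200a and miR-200b. miR-182-3p is not drawn because it was at 0 reads in every non-irradiated library.

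The keratinocyte differentiation list holds miRNAs linked with the p63 programme or with differentiating keratinocytes, without miR-203 itself. Of its 12 tested entries 3 rose, 1 fell and 8 were not called, beside 13.6% higher and 8.22% lower over all tested miRNAs. The median log2 fold change was 0.96. It includes miR-23b-5p and miR-34c-3p, not called, which passed the filter only through their UVA libraries, and this favours a positive value. Its most abundant member, miR-24-3p, was not called (log2 fold change -0.51, SE 0.33, edgeR adjusted p = 0.261), nor was miR-125b-5p, the next (-0.71, SE 0.47, edgeR adjusted p = 0.261). miR-34a-5p, whose gene p63 represses in keratinocytes, rose by 2.39 (SE 0.64, edgeR adjusted p = 0.0261). That call and those of miR-24-1-5p and miR-24-2-5p were lost without each non-irradiated library in turn (edgeR adjusted p from 0.0651 to 0.141), and that of miR-34a-5p also without UVA replicate 2 (edgeR adjusted p = 0.113). Without UVA replicate 1 the log2 fold changes of miR-24-1-5p and miR-24-2-5p were 1.45 and 0.91, not called, in place of 2.31 and 2.01. The fall was that of miR-184-3p.

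Marker miRNAs of other cell types were counted by the same test, against 13.6% higher and 8.22% lower over all tested miRNAs. In the fibroblast list 3 of 5 tested members rose and none fell, and of the melanocyte entries miR-211-5p rose. Its other arm, miR-211-3p, was called too but was at 0 reads in all non-irradiated libraries and passed the filter only through the UVA libraries. In the skeletal muscle list miR-1a-3p fell, miR-133b-3p rose and the other 5 of 7 tested members were not called, and the only tested liver entry, miR-122-5p, fell. Of 9 leukocyte entries 1 fell and the other 8 were not called, and of 7 vascular entries 2 rose and 2 fell. Of 3 erythroid entries 0 were called by edgeR, by the DESeq2 Wald test or by limma-voom, and 0 had an unadjusted edgeR p of 0.05 or lower. The summed share of the epithelial list overlapped between the groups, at 1.34% to 1.98% in UVA and 1.55% to 1.61% in non-irradiated libraries, as did that of the leukocyte list, at 0.0857% to 0.184% and 0.0589% to 0.115%. The part of these shifts in the rise of miR-205-5p was not tested beyond the values without the muscle list and against the miR-200 group given above.

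The miRNAs whose pattern over the 6 libraries was most like each guide were found by the root mean square difference of mean-centred log2 CPM over 282 other miRNAs of 10 CPM or more. For miR-203-3p these were miR-152-3p (0.23), miR-148a-5p (0.25), miR-30a-5p (0.27), miR-200a-3p (0.28) and miR-200b-3p (0.28), each with its lowest value in UVA replicate 3. For miR-205-5p they were miR-98-5p (0.35), miR-199a-3p/miR-199b-3p (0.38; merged by the authors), miR-29a-3p (0.43), miR-298-5p (0.44) and miR-221-3p (0.47), with log2 fold changes from 2.79 to 3.29. The neighbours of miR-203-3p include members of the epithelial list and those of miR-205-5p include none. The libraries are the same for every miRNA, and fold changes near that of the guide follow from this choice, so these distances are a description. Without non-irradiated replicate 2 the log2 fold change of miR-98-5p was 2.16, and that of miR-298-5p was 1.91 without UVA replicate 2. miR-98-5p lost its call without non-irradiated replicate 1 (edgeR adjusted p = 0.0557). miR-298-5p lost its call without UVA replicate 2 (edgeR adjusted p = 0.189) and without each non-irradiated library (edgeR adjusted p from 0.0551 to 0.0938).

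The strand opposite Mir203 holds another miRNA, miR-203b, whose 3p arm is shown because it pairs with miR-203-5p over 20 of its 22 bases. Capitals again mark bases 2 to 8.
miR-203b-3p: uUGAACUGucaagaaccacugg
It was read 38, 52 and 29 times in the UVA replicates and 15, 167 and 73 times in the non-irradiated replicates, against 292 to 1274 reads of miR-203-5p in the same libraries. In CPM these are 2.42, 3.76 and 2.97 in UVA and 1.25, 12.8 and 10.6 in non-irradiated skin. The groups overlapped, with non-irradiated replicate 1 the lowest of the 6, and the log2 difference of -1.42 (SE 0.90) was not called (edgeR adjusted p = 0.252).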

How the data were processed

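Per the labels' protocols, RNA came from the mirVana kit and libraries from TruSeq Small RNA kits. The deposited counts are the authors' whole reads per mature miRNA. Per the submitters' processing notes reads were handled with Bowtie, with no version, genome build or miRNA release given there. The authors merged identical sequences (34 entries), and 2 emptied lines were not analysed. Each library's deposited RPM values and counts differ by 1 factor, from which the authors' total reads were taken. The fold, log2 fold change, p-value and q-value columns and the mean normalized signal per group come from the authors, per the file headers, which name no tool.

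Columns were matched to samples through the sample descriptions. Counts were tested with edgeR 4.0.16 (quasi-likelihood, TMM, filterByExpr, Benjamini-Hochberg) in R 4.3.3, and arm use with limma 3.58.1 on log2 ratios with 0.5 added. Standard errors were derived from the F statistic, and intervals use the test's degrees of freedom. DESeq2 1.42.0 and limma-voom were alternatives. Exact tests were 2-sided permutations of libraries. The intervals of log2 fold changes carry the spread between libraries. Those of shares of reads, and floors, cover counting error only, since there were no molecular identifiers and reads may be PCR copies. The exact 95% (Clopper-Pearson) interval of a member's share of reads was no wider than 0.016 percentage points to either side.

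The members, lists and tests were chosen with earlier results of these data known. The miRNAs named are the members, sequences near them, miR-203b, the most abundant and the called members of the epithelial and keratinocyte differentiation lists, markers of the other lists and the 5 most like each guide. In counts simulated for the 499 tested miRNAs, 75.1% of changes of 8-fold were called by edgeR, 28.5% of those of 4-fold and 5.68% of those of 2-fold, and 0.853% of unchanged miRNAs. In ratios simulated for 77 hairpins, the limma step called 97.0% of 8-fold and 53.7% of 4-fold changes. Replicates of a group differed beyond sampling noise in all pairs.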

Additional observations from a re-analysis of the deposited data

How the results depend on the processing

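The direction of miR-203-3p, miR-203-5p and miR-205-5p was kept under all 16 alternatives. miR-205-5p was called in 15 of them, and not without non-irradiated replicates 1 and 2 together (2.18). miR-203-3p was never called, at 0.82 with unscaled library sizes and 1.07 with the authors' total reads. miR-203-5p was called only with the authors' total reads (1.70). miR-205-3p was positive with unscaled library sizes (0.50), with the authors' total reads (0.72) and without the skeletal muscle list (0.13). Without single libraries the log2 fold changes were 0.0031 to 0.63 for miR-203-3p, 0.63 to 1.14 for miR-203-5p, 2.57 to 3.13 for miR-205-5p and -0.30 to 0.056 for miR-205-3p, which was positive without UVA replicate 3. The arm change of miR-205 kept its call in 11 of 12 alternatives, and was 2.56 without non-irradiated replicates 1 and 2 together. That of miR-203 stayed between 0.34 and 0.86, never called. The ratio of the guides was -3.29 to -2.35 without single libraries and -2.16 without non-irradiated replicates 1 and 2 together, and the other arms gave the opposite sign (0.86). Why these values moved was not tested.

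The epithelial list had 5 members higher and 2 lower. These became 9 and 0 with the authors' total reads, 0 and 0 by edgeR without non-irradiated replicates 1 and 2 together (4 and 2 at an unadjusted p of 0.05, 3 and 0 by DESeq2, 0 and 0 by limma-voom), and 1 was lower with unscaled library sizes. Without single libraries they were 3 to 6 and 0 to 2. The keratinocyte differentiation list had 3 higher and 1 lower, which became 5 and 0 with unscaled library sizes, 7 and 0 with the authors' total reads and 0 and 0 without those 2 libraries (1 and 2 at an unadjusted p of 0.05, 1 and 0 by DESeq2, 0 and 0 by limma-voom). Without single libraries they were 0 to 3 and 0 to 1. Over all tested miRNAs the 68 calls higher and 41 lower became 122 and 27 with unscaled library sizes, 147 and 22 with the authors' total reads, 114 and 77 by the DESeq2 Wald test, 84 and 67 by limma-voom, and 20 to 85 and 18 to 60 without single libraries. With the replicate block, miR-205-5p had a log2 fold change of 2.93 (edgeR adjusted p = 0.0023) and the list counts were 4, 2, 3 and 1. Same-numbered libraries correlated at 0.09, -0.07 and -0.04 in their deviations from the group means and not every library was closest to its own number, so the numbers were not taken to pair samples.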
